A study of Mus musculus with 4 samples.

Results

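The claudins described here are 10 mouse genes, Cldn1, Cldn2, Cldn3, Cldn4, Cldn6, Cldn7, Cldn8, Cldn10, Cldn12 and Cldn23, found on the arrays by the accession of each probe, which matched 11 probes. Of the 10 genes, 9 gave a signal well above background and were tested among 14995 features, of which 11442 carried a gene symbol. Cldn2 and the second of the 2 Cldn1 probes were not well above background in either channel of any array and were not tested.

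Claudins are membrane proteins of the tight junction, the seal near the apex of epithelial cells, and the mix of claudins in a junction sets which ions and how much water pass between cells. Barrier-forming claudins narrow that path, whereas pore-forming claudins open a channel for chosen ions. The ureteric bud is the epithelial outgrowth that branches into the collecting ducts, a tight epithelium in which Cldn3, Cldn4, Cldn7 and Cldn8 are known junction components. Cldn1, Cldn3, Cldn4, Cldn6 and Cldn8 are grouped here as barrier-forming, and Cldn2 and Cldn10 as pore-forming. Cldn7, Cldn12 and Cldn23 were placed in neither class, because their role is atypical or varies with cell type. The grouping is coarse: Cldn4 and Cldn8 count as barrier-forming here, although in collecting duct cells they also take part in a paracellular chloride path.

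RNA came from intact mouse kidney ureteric buds grown in a gel matrix on inserts in DMEM/F12 with 10% FBS, 100 ng/ml GDNF and 100 ng/ml HGF, additions that both groups shared. Buds received angiotensin II (AngII, the peptide hormone made by renin and angiotensin-converting enzyme) at 1e-05 M in one group and media without it in the control group, for 6 h in both. The labels number 2 RNAs of each group as replicates, without naming separate animals or litters, and give no strain or age, and the series' design text calls the replicates biological. AngII and media RNA of the same number were hybridised together to 2 two-colour arrays, once with AngII in the Cy5 dye and once with AngII in Cy3, which made 4 arrays, all on the same slide.

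Each channel held 19024 to 21921 probes well above background among the 41174 on an array, and precision is limited by the number of arrays. The distance of the numbered replicates from their mean had an SD across features of 0.04 on the log2 scale, as had the contrast of the same arrays that holds array noise alone (a ratio of 1.02). Testing the replicates against each other with limma called 0 features after adjustment and 771 at an unadjusted p under 0.05, beside 750 by chance. Because this spread is no larger than array noise, the replicates are counted here as 1 independent pair of RNAs, although the submitters call them biological. The limma p-values and intervals measure the spread between the numbered replicates after each dye swap was averaged. A difference between dye orientations therefore does not widen them. The standard error (SE) was 0.03 both for Cldn6, whose 4 arrays had an SD of 0.57, and for Cldn9, with an SD of 0.02. Whether the RNAs came from separate animals was not tested. In this design 77.3% of all features tested passed the threshold, an adjusted p under 0.05, and the smallest log2 ratio that passed was 0.07 in size. The arrays of a dye swap correlated across features at r = 0.67 and 0.68, against 0.96 and 0.97 for arrays of the same orientation, and features are not independent replicates.

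All 9 claudins tested passed the threshold, beside 77.3% of all features. AngII-treated buds had higher ratios for 4 of them (Cldn8, Cldn23, Cldn10 and Cldn1) and lower ratios for 5 (Cldn3, Cldn6, Cldn7, Cldn4 and Cldn12), beside 39.1% of all features higher and 38.1% lower. The median size of the log2 ratio was 0.20 for the claudins and 0.19 for all features. As reported, none of the 9 claudins reached a 2-fold difference, which 1.16% of features did upward and 0.96% downward. This depended on the processing: with Agilent's processed signals Cldn8 (1.78 on the log2 scale) and Cldn12 (-1.19) passed 2-fold and the features past 2-fold went from 318 to 1136, and with AngII in Cy3 alone Cldn12 was at -1.02. In a bulk sample, fewer cells that express a claudin and less of its RNA per cell cannot be told apart.

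**Figure D1:**
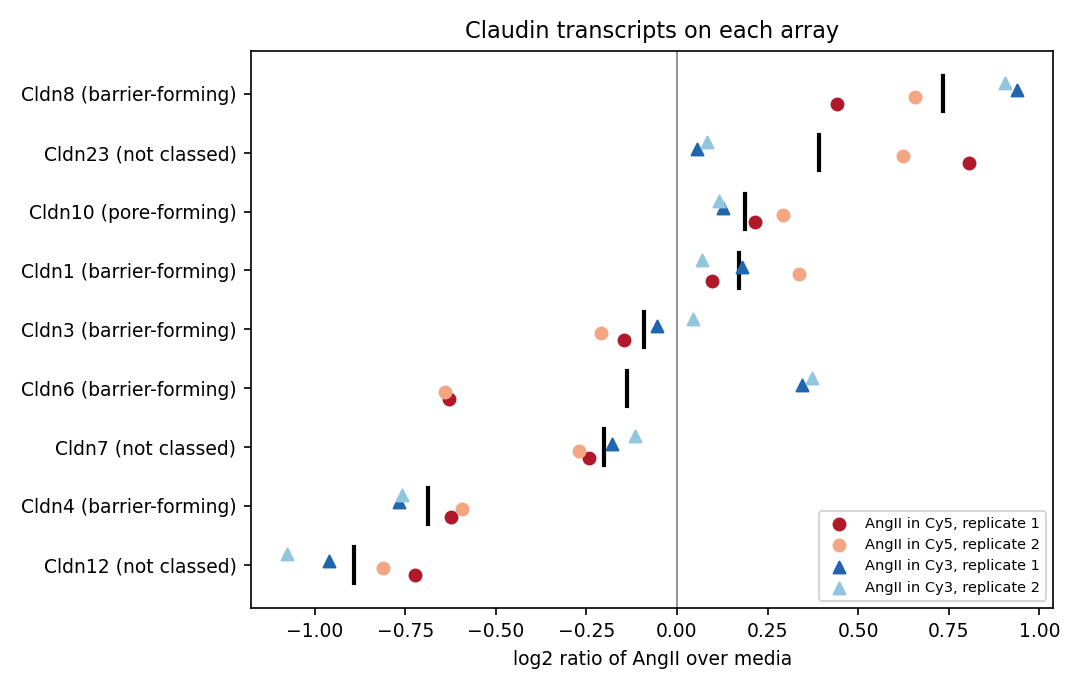
The log2 ratio of AngII over media on the horizontal axis for each of the 9 claudins tested, with circles for arrays that carried AngII in Cy5, triangles for AngII in Cy3, and a black bar at the mean. Cldn8 lies to the right of 0 and Cldn4 and Cldn12 to the left on all 4 arrays, whereas the circles and triangles of Cldn6 lie on opposite sides of 0.

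Promoter letters were set beside Cldn4 and Cldn12, the claudins with the lowest ratios. RefSeq windows of GRCm38.p6 matched 8 of the 10 genes, in 12 windows (Cldn8 and Cldn23 had none), and the 250 bases before each listed start were read 5′ to 3′ on the gene's strand. Capitals mark motif matches on either strand: TGANTCA (AP-1, the Fos and Jun site), GGGCGG (the GC box) and CAGGTG (an E-box that Snail factors can bind), the last 2 appearing as CCGCCC and CACCTG where the match is on the other strand.
Cldn4, chr5:134946935-134947184, minus strand: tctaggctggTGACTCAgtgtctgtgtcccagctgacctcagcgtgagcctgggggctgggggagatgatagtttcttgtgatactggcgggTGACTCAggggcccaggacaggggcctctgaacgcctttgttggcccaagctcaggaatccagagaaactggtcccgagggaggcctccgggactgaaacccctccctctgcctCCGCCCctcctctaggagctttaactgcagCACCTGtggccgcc
Cldn12, first window, chr5:5514790-5515039, minus strand: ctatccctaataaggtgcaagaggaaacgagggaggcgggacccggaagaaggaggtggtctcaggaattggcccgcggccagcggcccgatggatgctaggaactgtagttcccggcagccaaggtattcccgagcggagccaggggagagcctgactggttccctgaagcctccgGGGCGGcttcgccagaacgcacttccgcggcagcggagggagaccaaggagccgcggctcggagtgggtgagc
The Cldn4 window held TGANTCA at 240 and 158 bases before the start, and each of these matches reads as the motif on both strands. It was the only one of the 12 claudin windows with TGANTCA, which 6.75% of 32851 windows of this length hold. GGGCGG was in 8 of the 12 claudin windows, beside 32.7% of all windows. These 8 windows had 53.6% to 72.4% GC, beside a median of 52.4% over all windows. In the Cldn12 window GGGCGG lay 73 bases before the start, and the other 2 Cldn12 windows overlap the printed one. The second Cldn12 window holds the same match, so this site is counted in 2 of the 8 windows. CAGGTG was in the windows of Cldn4, Cldn6 and Cldn7, beside 17.2% of all windows. AACNGGTT, the site of Grainyhead-like factors, was in 0 of the 12 claudin windows, beside 1.79% of all windows. TATAAA was in the Cldn2 window alone among these 12, 35 bases before the start, beside 12.4% of all windows. The arrays do not measure these windows, and the matches are descriptions of their letters.

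Among barrier-forming claudins, Cldn4 was lower with AngII. In mouse collecting duct cells Cldn4 is known to interact with Cldn8 in a paracellular chloride path. The normalised log2 intensity of Cldn4 in the AngII channel was 11.50 and 11.43 on the arrays with AngII in Cy5 and 11.37 and 11.32 on those with AngII in Cy3. In the media channels of the same arrays it was 12.12, 12.02, 12.14 and 12.08. Every AngII value lay below every media value. The log2 ratio of Cldn4 was -0.69 (SE 0.03; 95% interval -0.76 to -0.62), which is 1.61-fold lower with AngII (limma adjusted p = 1.46e-16, lower on 4 of 4 arrays). Of all features, 3.59% had a lower ratio than Cldn4.

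Cldn8 moved in the other direction. It is the partner of Cldn4 in that path, and in mouse collecting duct the Klhl3 ubiquitin ligase adaptor is known to act on its protein. Its log2 intensity was 6.87, 7.35, 7.14 and 7.12 in the AngII channels and 6.43, 6.69, 6.20 and 6.21 in the media channels of the same 4 arrays. The AngII values lay above all media values, with the smallest distance on the first array with AngII in Cy5. The log2 ratio of Cldn8 was 0.74 (SE 0.04; 95% interval 0.66 to 0.81), 1.66-fold higher with AngII (limma adjusted p = 6.21e-17, higher on 4 of 4 arrays). The media values of 6.20 and 6.21 lay near 6.13, the lowest mean intensity of a tested feature, so the size of the ratio depends on the processing. Without background correction the log2 ratio of Cldn8 was 0.89, and with Agilent's processed signals, which differ in both background and dye normalisation, it was 1.78. On a single array, Cldn8 exceeded Cldn4 in log2 ratio by 1.07 to 1.71.

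**Figure D2:**
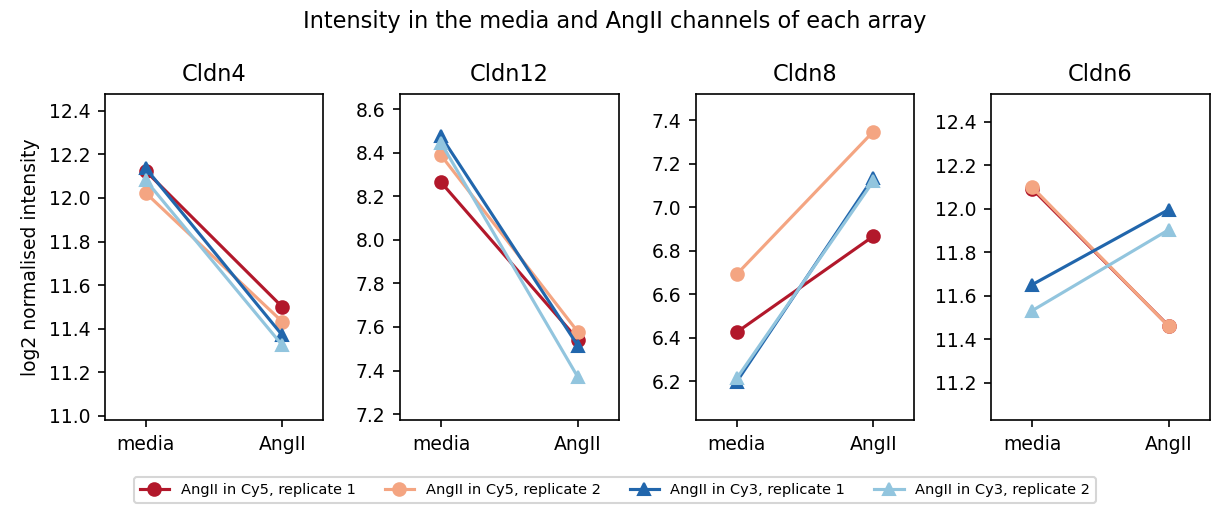
The log2 normalised intensity on the vertical axis in the media and AngII channels of each array, joined by a line per array, for Cldn4, Cldn12, Cldn8 and Cldn6; each panel has its own range. Lines fall from media to AngII for Cldn4 and Cldn12 and rise for Cldn8 on all 4 arrays, and for Cldn6 they fall with AngII in Cy5 and rise with AngII in Cy3.

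Cldn1, a sealing claudin best known from the epidermis, had log2 ratios of 0.10 and 0.34 with AngII in Cy5 and of 0.18 and 0.07 with AngII in Cy3. All 4 arrays were above 0, and the channel intensities did not overlap (6.83 to 7.04 with AngII and 6.70 to 6.80 in media). The mean was 0.17 (limma adjusted p = 6.93e-05). The second Cldn1 probe, which did not pass the filter, had log2 ratios between -0.06 and 0.06. Of the 2 probes of Cldn1, the result therefore rests on 1.

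Cldn3, another sealing claudin of the collecting duct, had log2 ratios of -0.15 and -0.21 with AngII in Cy5 and of -0.05 and 0.04 with AngII in Cy3. The last of these arrays was above 0, and the intensities of the AngII and media channels overlapped. The mean was -0.09 (limma adjusted p = 0.0168, lower on 3 of 4 arrays). Median centring in place of loess gave -0.004 for Cldn3 on the log2 scale, with a limma adjusted p of 0.936.

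Cldn6, a claudin of embryonic epithelia, had log2 ratios of -0.63 and -0.64 with AngII in Cy5 and of 0.35 and 0.37 with AngII in Cy3. The arrays of one dye orientation lay on one side of 0 and those of the other orientation on the other side, so that the brighter channel was Cy3 on all 4 arrays. The mean over both orientations was -0.14 (limma adjusted p = 0.000609, lower on 2 of 4 arrays), and its sign turned to 0.36 with AngII in Cy3 alone. Opposite signs by orientation occurred in 21.7% of features, and 99.2% of features had a smaller difference between orientations than Cldn6. No direction with AngII can be read for Cldn6 from a mean of such values.

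Of the pore-forming claudins, Cldn10 was measurable and Cldn2 was not. Cldn10, which forms cation or anion channels depending on its isoform, had log2 ratios of 0.22 and 0.29 with AngII in Cy5 and of 0.13 and 0.11 with AngII in Cy3. All 4 were above 0, although the intensities overlapped between channels (6.42 to 6.61 with AngII and 6.27 to 6.42 in media). The mean was 0.19, or 1.14-fold higher with AngII (limma adjusted p = 1.65e-05), and Agilent's processed signals gave 0.91 on the log2 scale. The probe is dim: its mean log2 intensity of 6.42 fell in the dimmest of 10 equal bins of tested features, which ran from 6.13 to 6.45. The size of its ratio therefore depends on the processing. Which isoforms of Cldn10 the probe reads was not analysed here. Cldn2, the cation and water channel of proximal tubule, had log2 ratios of -0.03, 0.04, -0.03 and -0.07 on the 4 arrays at intensities not well above background, and no fold is given.

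Among claudins placed in neither class, Cldn12 had the lowest ratio of all 9. It is known in mouse kidney and gut for a part in paracellular calcium passage. Its log2 intensity was 7.54, 7.58, 7.51 and 7.37 in the AngII channels and 8.26, 8.39, 8.48 and 8.44 in the media channels. Every AngII value lay below every media value. The log2 ratio of Cldn12 was -0.89 (SE 0.04; 95% interval -0.96 to -0.82), 1.86-fold lower with AngII (limma adjusted p = 9.59e-19, lower on 4 of 4 arrays). Of all features, 1.53% had a lower ratio.

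Cldn7, which is known to bind Epcam and lies also along the lateral membrane, had log2 ratios of -0.24 and -0.27 with AngII in Cy5 and of -0.18 and -0.12 with AngII in Cy3. All 4 arrays were below 0, but the channel intensities overlapped between arrays. The mean was -0.20, or 1.15-fold lower with AngII (limma adjusted p = 5.41e-06).

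Cldn23, a less studied member of the family, had log2 ratios of 0.81 and 0.62 with AngII in Cy5 and of 0.05 and 0.08 with AngII in Cy3. All 4 were above 0 and the channels did not overlap, but the size differed with the orientation of the dyes. The mean was 0.39, or 1.31-fold higher with AngII (limma adjusted p = 5.07e-11), and with AngII in Cy3 alone Cldn23 did not pass (0.07 on the log2 scale, limma adjusted p = 0.153).

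Of the 9 claudins, 7 had the same sign on all 4 arrays (Cldn6 and Cldn3 did not), 4 of them higher and 3 lower. Beside this, 59.1% of all features had one sign on all 4 arrays, 31% higher and 28.1% lower. The AngII and media intensities did not overlap for 5 claudins, of which Cldn1, Cldn8 and Cldn23 were higher and Cldn4 and Cldn12 lower with AngII. Of all features, 33% did not overlap, 17.9% higher and 15.1% lower. Of the 9 claudins, 7 were called in the authors' deposited table, beside 70% of these features, and the 2 not called were Cldn3 and Cldn6.

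With the replicate number as a block over the 4 arrays, 31% of features passed, and of the 9 claudins Cldn4, Cldn8 and Cldn12 did. This fit has no dye term, so a difference between dye orientations widens its error. The limma adjusted p of the other 6 in that fit lay between 0.0771 (Cldn7) and 0.693 (Cldn6). Without replicate 1 the log2 ratios of Cldn4, Cldn8 and Cldn12 were -0.68, 0.78 and -0.94. Without replicate 2 they were -0.70, 0.69 and -0.84. Cldn4, Cldn8 and Cldn12 kept their direction and passed in all 13 alternative settings. The share of all features that did so was not computed.

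Ordered by log2 ratio, the claudins ran Cldn8, Cldn23, Cldn10, Cldn1, Cldn3, Cldn6, Cldn7, Cldn4 and Cldn12, from the highest to the lowest. Between neighbours in this order, the ranges over the 4 arrays were apart for Cldn1 against Cldn3 and for Cldn7 against Cldn4. The ranges of the other 6 neighbouring pairs overlapped. Within arrays, Cldn4 nevertheless exceeded Cldn12 on all 4, by 0.10 to 0.32, whereas the difference changed sign between arrays for the other 5 pairs.

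The classes did not move as blocks. Of the 5 barrier-forming claudins, 2 were higher and 3 lower with AngII, with a median log2 ratio of -0.09 between the extremes of -0.69 for Cldn4 and 0.74 for Cldn8. The lower ones include Cldn6, whose sign differed by dye orientation. Without Cldn6, 2 were higher and 2 lower, with a median of 0.04. The pore-forming class was Cldn10 alone, at 0.19, read from a dim probe. Of the 3 claudins in neither class, 1 was higher and 2 were lower, with a median of -0.20, and the median over all features was 0.00. The pore-forming value exceeded the barrier-forming median by 0.28 on the log2 scale, or by 0.15 without Cldn6. On single arrays this difference was 0.36 and 0.50 with AngII in Cy5 and -0.05 and 0.04 with AngII in Cy3. It was thus present with one dye orientation and near 0 with the other, and no test was made, since the pore-forming class holds 1 measured gene.

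**Figure D3:**
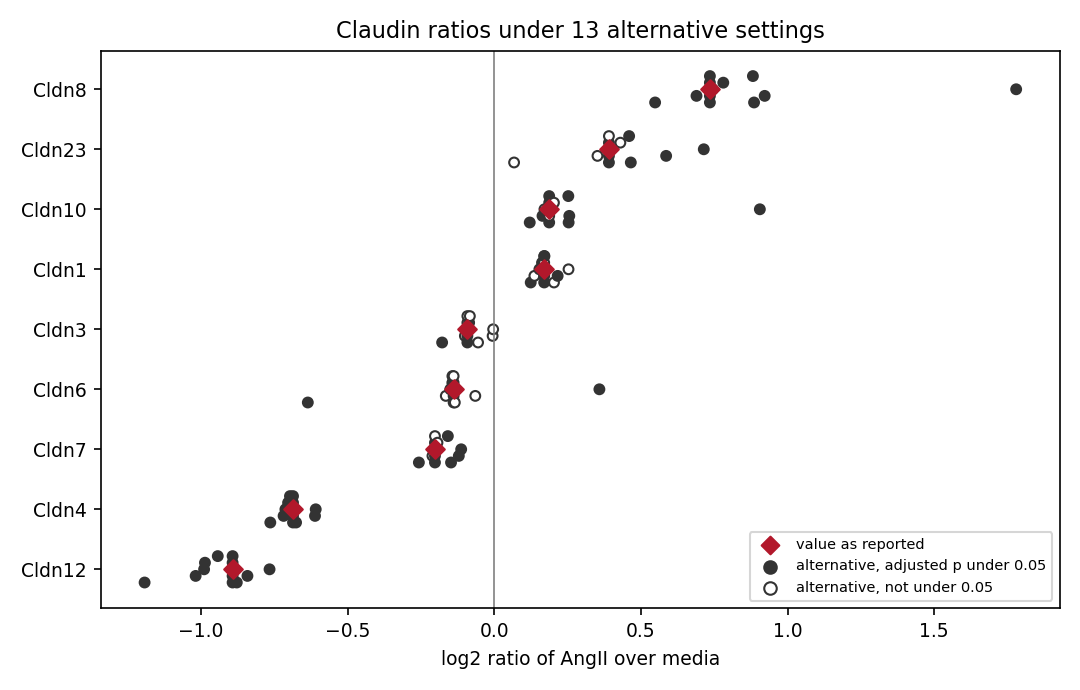
The log2 ratio of AngII over media on the horizontal axis for each claudin as reported (diamond) and under 13 alternative settings (circles, filled where the adjusted p was under 0.05). All circles of Cldn4, Cldn8 and Cldn12 are filled, and the Cldn8 circle farthest right, at 1.78, is from Agilent's processed signals.

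Claudins that were not among the 10 members had probes for 14 genes, of which 5 were tested. Cldn5, the main claudin of endothelium, was higher with AngII, with log2 ratios of 0.40, 0.31, 0.62 and 0.62 and a mean of 0.48 (limma adjusted p = 3.82e-13). Cldn9 was higher at 0.17, with all 4 arrays above 0, and Cldn15 was lower at -0.15, with all 4 arrays below 0. Cldn14 passed at -0.09 but had 1 array above 0, and Cldn34c1 did not pass (-0.06, limma adjusted p = 0.115).

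The other genes of the tight junction were read from a list of 47, of which 41 were tested, 21 were higher and 15 lower with AngII, and 5 did not pass, beside 39.1% of all features higher and 38.1% lower. With the replicate block 14 of the 41 passed, 6 higher and 8 lower, beside 31% of all features. The median log2 ratio of the list was 0.12, but 0.03 when the probes of each gene were averaged, 0.04 without the filter on dim probes, 0.06 with AngII in Cy3 alone and 0.18 with median centring. Scaffolds of the junction plaque, which tie claudins to actin, were higher for 4 genes and lower for 5. The lowest was Cgn (cingulin), which fell by 0.61 on the log2 scale (limma adjusted p = 2.11e-15). The highest was its relative Cgnl1 at 0.25, whose other probes gave 0.23 and -0.19. Other membrane proteins of the junction were higher for 4 and lower for 5, from Jam2, a junctional adhesion molecule, at 0.60 to Marveld3, a relative of occludin, at -0.34 (-0.46 on its other probe). Of 7 polarity genes 3 were higher, 1 was lower and 3 did not pass. Pard3, a polarity scaffold, was the highest at 0.22, with 0.14, -0.03 and -0.52 on its other probes, and Pard6b, its binding partner, was the lowest at -0.30.

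Genes that act on claudin protein were higher for 4, lower for 3 and short of the threshold for 1. Epcam, the adhesion molecule that binds Cldn7, was the highest, with ratios of 0.59 to 0.87 on the 4 arrays and a mean of 0.73 (1.66-fold; limma adjusted p = 3.69e-17). Prss8, the membrane protease prostasin, was the lowest at -0.73, with all 4 arrays between -0.82 and -0.64. Epcam was therefore higher while Cldn7 was lower at -0.20. Of 8 transcription factors known to raise or lower claudin genes, 6 were higher, 1 was lower and 1 did not pass, beside 39.1% of all features higher and 38.1% lower. Snai2, a repressor of epithelial junction genes, was the highest at 0.72, with 0.58 to 0.88 on the 4 arrays. Ovol2, which keeps epithelial genes on, was the lowest at -0.61, with -0.49 on its other probe. The other tested factors were named after their values were seen. Snai1, a relative of Snai2, was higher at 0.57, and Grhl2, known to activate Cldn4 in mouse kidney duct epithelium, was higher at 0.16, with -0.03 on its other probe. Ovol1 was higher at 0.48 and Elf3 at 0.20, both on all 4 arrays. Zeb1 was higher at 0.35 but ranged from -0.08 to 0.81 over the arrays, and Zeb2 did not pass (0.05).

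**Figure D4:**
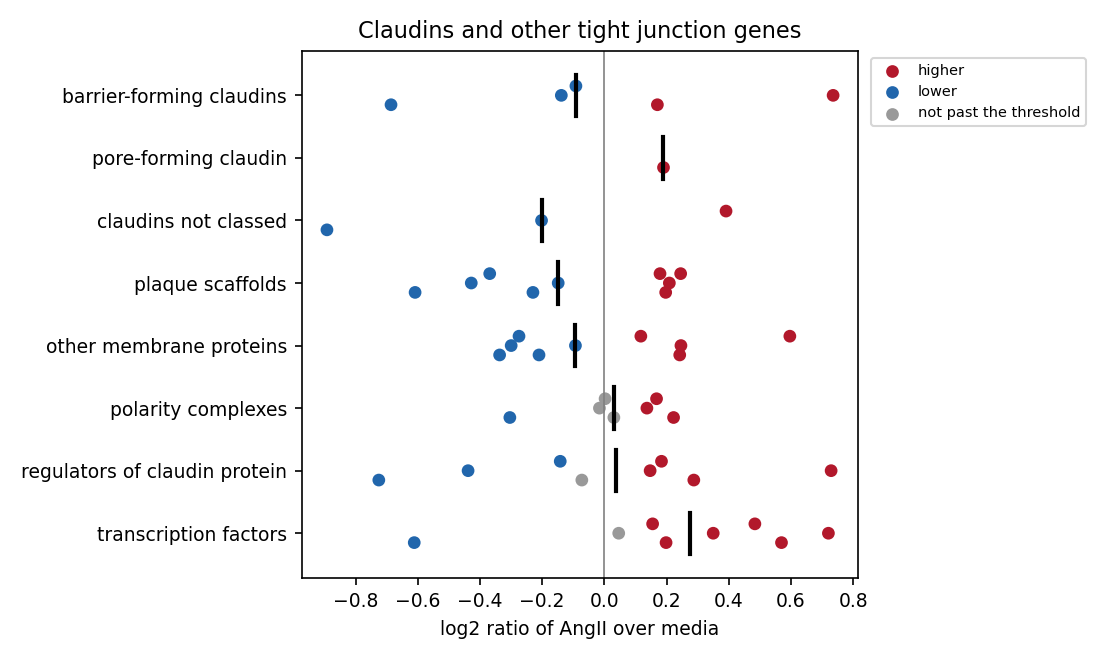
The log2 ratio of AngII over media on the horizontal axis for each tested claudin and tight junction gene by group, coloured by direction at an adjusted p under 0.05, with a black bar at each group's median. Genes lie on both sides of 0 in every group but the single pore-forming claudin, and the transcription factors have the highest group median among the other junction genes, at 0.27.

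Of 14 ureteric bud markers 13 were tested, 6 higher and 6 lower with AngII, with a median log2 ratio of -0.03, and Ret was not well above background in any channel. The summed intensity of all 14, which follows the brightest probes, was 235214 to 264198 with AngII and 263312 to 334829 in media. These ranges overlapped only at their edge, with AngII the lower. Markers of other cells were counted in the same way. All counts in this paragraph, those of the bud markers included, stand beside 39.1% of all features higher and 38.1% lower. All 7 erythroid markers tested were higher (median 2.21), and the summed intensity of the whole list of 8 ran from 32253 to 39866 with AngII and from 6018 to 7152 in media. Of 7 stromal markers 5 were higher and 1 lower (median 0.23), and their summed intensity was 30760 to 33320 with AngII and 21321 to 22563 in media. The sum takes the brightest probe of each gene. Acta2 was at 1.69 on that probe, with 1.03 and 0.65 on its other probes. Col1a1 was at 0.40, with 0.07 and 0.08 on its other probes. Of 9 endothelial markers, which include Cldn5, 8 were tested, 2 higher and 5 lower (median -0.09), and their summed intensity ranges overlapped (2522 to 2571 and 2340 to 2663). Nephron progenitor markers were higher for 2 and lower for 4 of 7 (median -0.37), with overlapping sums (5071 to 5873 with AngII and 5106 to 5610 in media). Of 10 differentiating nephron markers 5 were tested, and 4 of these were higher (median 0.31). Pou3f3 was higher at 0.55 and Lrp2 at 0.13, with -0.16 and 0.01 on their other tested probes. Nphs1, Slc34a1 and Cubn were not well above background in any channel, and Umod and Slc12a1 did not pass the filter. The sums of the whole list were 3217 to 3773 with AngII and 2120 to 2414 in media. Leukocyte markers were higher for 3 and lower for 2 of 6 (median 0.15), with sums of 693 to 727 with AngII and 594 to 622 in media. The part of these cell types in the claudin ratios was not tested.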

How the data were processed

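RNA of AngII-treated and media-treated ureteric buds was compared on 4 two-colour Agilent arrays. Per the file headers, the scanner images were quantified in Feature Extraction 10.5.1.1. The authors' deposited scanner intensity values are median spot and background signals and a background-subtracted, dye-normalised processed signal. For every spot, the authors' deposited result table lists a log2 ratio, an adjusted p-value and a call used as a score of -1, 0 or 1. Its normalisation is not given in the sources used here; the submitters' processing notes name limma without a version. Flags of 0 or 1 in the deposited files mark spots above background, saturated or outlying.

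The analysis used limma 3.58.1 in R 4.3.3, with normexp at an offset of 50 and loess within arrays (control spots weighted 0). Spots flagged as outliers were dropped, saturated ones were kept, and the mean taken over the spots of a probe. Dye-swapped arrays had their sign flipped to read AngII over media. Each replicate number gave 1 ratio, the mean of its dye swap, and lmFit and eBayes tested these against 0, with Benjamini-Hochberg adjustment over 14995 features and a threshold of 0.05. The filter kept 19373 of 41174 probes, those well above background on all 4 arrays for AngII or on all 4 for media, and the brightest probe stood for a gene. Channel intensities were scaled between arrays with Aquantile. Unversioned accessions were looked up in RefSeq (GRCm38.p6), giving a symbol to 25097 probes; promoter letters come from RefSeq in the same build. The array annotation is of another build, so no probe coordinates are given.

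The claudins and the gene lists were chosen with earlier results of these data known. Named genes were all claudins with a signal and, per group of the tight junction list, the called genes with the largest rise and fall among those of the same sign on every array. The remaining tested transcription factors of that list were added later. Replicate numbers pair the samples, since each array holds the AngII and media RNA of 1 number; ratios of the replicates correlated at r = 0.98. Levels of different probes were not compared. Tested on simulated data for this comparison, the fit recovered 100 of 100 features changed by 0.25 and 100 of 100 changed by 0.5 on the log2 scale among 14995. It called 5 of 14795 unchanged features. The simulated noise had the same SD for every feature, the dye effect cancelled within a swap, and RNAs did not vary. The simulation checks the arithmetic of the fit and cannot show how many of the calls on the real arrays are right. Alternatives covered background correction, normalisation, filter, probe choice, dye orientation, each replicate left out, the replicate block, a dye term and the authors' values.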

Additional observations from a re-analysis of the deposited data

Results flagged for a closer look

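For Cldn6, the arrays with AngII in Cy5 and those with AngII in Cy3 gave opposite signs after the swapped arrays were turned. The mean log2 ratio of AngII over media was -0.64 with AngII in Cy5 and 0.36 with AngII in Cy3, a difference of -0.99. The difference between orientations was not tested. Of all features, 3259 (21.7%) had opposite signs by orientation, and 44.2% of those passed the threshold on the mean of both. Among the 9 claudins tested, Cldn6 was the only one whose 2 orientation means had opposite signs.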

How the results depend on the processing

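Of 14995 features, 11588 passed as reported, 4641 with the replicate block, and 2212 to 2942 with 1 replicate left out. The tight junction list gave 36 called genes as reported, 14 with the replicate block and 7 to 8 with 1 replicate left out. The other 10 alternatives kept both counts within 1.5 times. The fits with 1 replicate left out assume that the lone RNA pair varies like the arrays it was read on.

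The pore-forming value minus the barrier-forming median, 0.28 on the log2 scale as reported, was 0.34 without background correction, 0.995 with Agilent's processed signals, 0.17 with median centring, 0.17 without the filter on dim probes (where Cldn2 enters), 0.43 with AngII in Cy5 alone, -0.00338 with AngII in Cy3 alone and 0.31 in the authors' deposited table. Leaving Cldn6 out of the barrier-forming class, a choice made after seeing the data, gave 0.15. The other 6 alternatives say little about its stability. With the stricter filter, averaged probes, the replicate block and the dye term it stayed at 0.28. The filter and the averaging left the claudin probes unchanged, and the block and dye term cannot change a ratio in this balanced design. It was 0.27 to 0.29 when 1 replicate was left out. Those values themselves set the spread between replicates, so they could not exceed it.

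Cldn6 turned sign with AngII in Cy3 alone (0.36) and fell short of the threshold in 5 other alternatives. Cldn1, Cldn3, Cldn7, Cldn10 and Cldn23 kept their direction in all 13 alternatives, but fell short of the threshold in 4, 8, 3, 3 and 4 of them. The replicate block changed the call of 6 of 9 claudins. That fit used the 4 arrays without averaging each dye swap and without a dye term. A difference between dye orientations thus enters its error. With a dye term on the same 4 arrays all 9 claudins passed, beside 76% of all features. The causes of the other changes were not tested.

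Precision is limited by 1 independent pair of RNAs on 1 slide. The share of features that passed varied with signal. Among 10 equal bins of features by intensity, the dimmest had an SD of log2 ratios across features of 0.14 and 50.6% passing. Bin 7 had 0.46 and 85.9%. This SD is the spread of ratios between features and does not measure the precision of a ratio.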
